A study of Mus musculus with 6 samples.

Results

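Transition proteins and protamines are the small basic proteins that replace histones while a spermatid condenses its nucleus. The 5 mouse genes described here, Tnp1, Tnp2, Prm1, Prm2 and Prm3, were taken by symbol from the 54532 genes measured in each library, and all 5 were among the 15368 genes tested. RNA came from testis cells labelled pachytene and purified by STA-PUT, which separates germ cells by their speed of sedimentation, from mice of about postnatal day 80. MAPS EE;MAPS KO (EE_KO) cells carried the MAPS EE allele, labelled as MAPS overexpression, in a MAPS knockout background. MAPS KO (KO) cells lacked the allele, and WT cells were wild type. Each group had 2 libraries, the study states 2 independent experiments, and 3 mice of one genotype were purified per group. Whether each library stands for one experiment, whether it pooled mice, what EE stands for and which promoter drives the allele are not stated in the labels. The p-values therefore cover the spread between libraries, which may be partly technical.

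Spermatids transcribe these genes after meiosis, store the mRNA as inactive particles and translate it days later. Tnp1 and Tnp2 proteins replace most histones first, and the arginine-rich protamines Prm1 and Prm2 then replace the transition proteins and pack the sperm genome. Prm3 lies in the same cluster, but in the mouse its product is an acidic protein of the spermatid cytoplasm rather than a DNA-packing protein. Transcription of the cluster in round spermatids depends on CREM, an activator that binds cyclic-AMP response elements. RNA of these genes in a pachytene fraction was read here as a measure of spermatid RNA in that fraction.

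In the GENCODE M21 annotation of GRCm38, Prm1 (ENSMUSG00000022501, chromosome 16, 10796326 to 10805839), Prm2 (ENSMUSG00000038015, 10791380 to 10796134), Prm3 (ENSMUSG00000050058, 10790505 to 10790914) and Tnp2 (ENSMUSG00000043050, 10787936 to 10788660) stand in a row on the minus strand within 17904 bases. Tnp1 (ENSMUSG00000026182) lies apart on chromosome 1, from 73015074 to 73015909, also on the minus strand. The 120 bases before each gene's start in RefSeq (GRCm38.p6) are printed so that the start regions of genes that moved together can be set side by side. Capitals mark matches to the motifs named after them.
Tnp1, chr1:73015900-73016019, minus strand: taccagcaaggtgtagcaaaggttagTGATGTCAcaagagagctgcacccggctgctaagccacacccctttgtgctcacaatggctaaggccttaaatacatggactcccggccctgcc
Tnp2, chr16:10788656-10788775, minus strand: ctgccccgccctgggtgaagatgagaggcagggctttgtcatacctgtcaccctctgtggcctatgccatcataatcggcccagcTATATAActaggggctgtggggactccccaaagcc
Prm1, chr16:10796824-10796943, minus strand: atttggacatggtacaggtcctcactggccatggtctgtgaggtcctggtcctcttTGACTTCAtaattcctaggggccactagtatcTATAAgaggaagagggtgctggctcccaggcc
Prm2, chr16:10792106-10792225, minus strand: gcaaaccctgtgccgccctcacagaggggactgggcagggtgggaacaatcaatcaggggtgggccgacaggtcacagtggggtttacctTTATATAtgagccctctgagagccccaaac
Prm3, chr16:10790915-10791034, minus strand: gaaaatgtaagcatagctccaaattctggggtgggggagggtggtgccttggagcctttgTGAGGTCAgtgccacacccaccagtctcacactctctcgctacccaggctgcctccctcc

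Motifs were searched on both strands in the 250 bases before each start, and positions count back from the RefSeq start. The full cyclic-AMP response element TGACGTCA was in none of the 5 windows and in 1.55% of all 32851 promoters of that table. Its relaxed form TGANNTCA, present in 11.9% of promoters, was found in Tnp1 from -94 to -87, in Prm1 from -64 to -57 and in Prm3 from -60 to -53. Tnp2 and Prm2 had no match to it. TATAA, present in 22.8%, was found in Tnp2 from -33 to -29, in Prm1 from -32 to -28 and, on the other strand, in Prm2 from -30 to -26. TATATA, present in 5.25% and overlapping TATAA here, was found in Tnp2 from -35 to -30 and in Prm2 from -29 to -24. CCAAT, present in 33.8%, was found only in Prm3 among the 5, from -150 to -146, outside the printed stretch. The RefSeq start of Prm1 lies 63 bases inside that of its first-numbered GENCODE transcript, and those of Tnp1 and Tnp2 lie 10 and 5 bases inside.

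The values are the authors' FPKM (fragments per kilobase of exon, scaled by a size for each library), a level per length that can be compared between genes. The size implied by the values was not the number of reads on genes. It was 1.40e+07 against 15947287 in the first WT library and 1.80e+07 against 15886958 in the first KO library. Multiplied by exon length, the FPKM of each of the 5 genes gave a whole number of reads in every library, out of 14178387 to 16565238 reads on genes. The gene of MAPS, 1700102P08Rik, had 109 and 82.2 FPKM in EE_KO, 7.97 and 10.1 in KO and 157 and 150.2 in WT libraries. The markers of mid to late pachytene, which should lead in these cells, were low in KO. Their 24 genes summed to 7997 and 8525 FPKM in EE_KO, to 366 and 434 in KO and to 9159 and 8351 in WT libraries. Markers of Sertoli cells, the somatic nurse cells, summed over 18 genes to 786 and 411 FPKM in EE_KO, to 6589 and 6252 in KO and to 501 and 497 in WT libraries. The 10 Leydig cell markers summed to 191 and 91.7 FPKM in EE_KO, to 2408 and 2293 in KO and to 64.3 and 118 in WT libraries.

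RNA of Tnp1, Tnp2, Prm1 and Prm2 was abundant in the WT and EE_KO fractions, and that of Prm3 was far lower. All 5 genes were almost absent in KO. Their summed level was 1396 and 2068 FPKM in EE_KO, 6.69 and 6.97 FPKM in KO and 1109 and 2508 FPKM in WT libraries. These sums were 0.442% and 0.636% of all FPKM in EE_KO, 0.00266% and 0.00299% in KO and 0.331% and 0.780% in WT libraries. Both KO libraries lay far below the other 4, and the EE_KO values lay within the range of WT. The KO mean was 0.00378 of the WT mean, and the EE_KO mean was 0.958 of it. With 2 libraries a group the smallest p that an exact two-sided permutation test can give is 0.333, which the KO sum reached against WT and against EE_KO; EE_KO against WT gave p = 1.

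**Figure D1:**
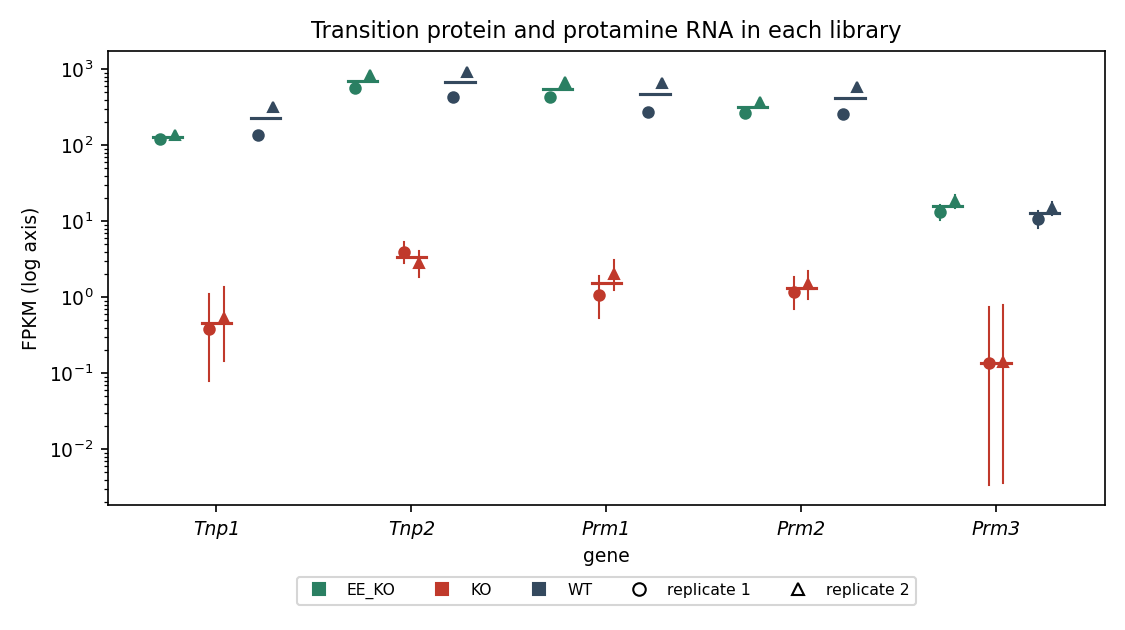
FPKM of the 5 genes in each library on a log axis, with EE_KO, KO and WT from left to right for each gene. Points are libraries, vertical lines are exact 95% Poisson intervals for the read count behind each point, and horizontal bars are group means. Every KO point lies between 0.136 and 3.92 FPKM, below all points of the same gene in EE_KO and WT.

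Tnp2, the transition protein of the protamine cluster, had the highest level of the 5 genes in every library. It read 566 and 855 FPKM in EE_KO, 3.92 and 2.81 FPKM in KO and 432 and 919 FPKM in WT libraries. Neither KO library came near the others, and the EE_KO values lay between those of the WT pair. In the second WT library only 10 genes stood above Tnp2, which ranked 11 there and 64 in the first WT library. The KO values rested on 39 and 27 reads, against 3350 and 7710 reads in WT. Group means were 711 ± 204 FPKM in EE_KO, 3.36 ± 0.787 in KO and 676 ± 345 in WT (SD, n = 2 libraries each).

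Tnp1, the transition protein gene outside the cluster, was lower than Tnp2 throughout. Its values were 121 and 137 FPKM in EE_KO, 0.382 and 0.527 FPKM in KO and 135 and 321 FPKM in WT libraries. The EE_KO values lay on either side of the lower WT value. Only 3 and 4 reads lay on Tnp1 in the KO libraries, against 827 and 2125 in WT. Means were 129 ± 10.8 FPKM in EE_KO, 0.454 ± 0.102 in KO and 228 ± 132 in WT (SD, n = 2). Tnp1 shares 40 exon bases with 1700027A15Rik on the opposite strand, and with the read strand not given in the sources used here, reads on those bases cannot be told apart. That transcript read 9.93 and 11.4 FPKM in EE_KO, 0.120 and 0.454 in KO and 8.60 and 18.4 in WT libraries, a small level beside Tnp1 in EE_KO and WT.

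Prm1, the protamine shared across mammals, read 429 and 691 FPKM in EE_KO, 1.07 and 2.02 FPKM in KO and 273 and 669.9 FPKM in WT libraries. The first WT library was the lowest outside KO. Means were 559.9 ± 185 FPKM in EE_KO, 1.54 ± 0.667 in KO and 472 ± 281 in WT (SD, n = 2). The KO values stand for 11 and 20 reads, against 2183 and 5790 reads in WT.

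Prm2, which is made as a precursor and trimmed after it binds DNA, read 266 and 367 FPKM in EE_KO, 1.18 and 1.48 FPKM in KO and 258 and 583 FPKM in WT libraries. The KO pair was low again, and the EE_KO pair lay inside the WT range. Its means were 317 ± 71.2 FPKM in EE_KO, 1.33 ± 0.211 in KO and 420.2 ± 229.8 in WT (SD, n = 2), with 19 and 23 reads behind the KO values.

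Prm3 stood far below the other 4 genes. It read 13.2 and 18.3 FPKM in EE_KO, 0.136 and 0.140 FPKM in KO and 10.6 and 14.8 FPKM in WT libraries. Each KO value is a single read, against 61 and 92 reads in WT, so the level there is known only up to 0.756 and 0.782 FPKM (upper limits of exact 95% Poisson intervals, counting error only). Means were 15.7 ± 3.60 FPKM in EE_KO and 12.7 ± 2.97 in WT (SD, n = 2).

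By mean FPKM the order was Tnp2, Prm1, Prm2, Tnp1 and Prm3 in both EE_KO and WT. In WT the gaps between Tnp2, Prm1, Prm2 and Tnp1 were smaller than the SD of the higher gene of each pair, while Prm3 lay apart from all. Within the first WT library the order was the same as in the means, and within the second it was too. The place of Prm1 and Prm2 depends on the length used. Per length of its first-numbered transcript of 621 bases, instead of the 894 bases of all its exons, Prm2 had a WT mean of 605 FPKM. That was above the 574 FPKM of Prm1 per its own first-numbered transcript of 469 bases. In EE_KO Prm1 stayed ahead on that scale, at 682 against 456 FPKM for Prm2.

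All 5 genes fell in KO against WT, where 48.1% of all genes tested were called lower. Calls came from limma, fitted to log2(FPKM + 1) of all 15368 genes, with the Benjamini-Hochberg method and a threshold of 0.05. On this scale the change was -7.42 for Prm1 (SE 0.41, adjusted p = 1.25e-06), -7.38 for Prm2 (SE 0.34, adjusted p = 5.05e-07), -7.19 for Tnp2 (SE 0.35, adjusted p = 6.14e-07) and -7.17 for Tnp1 (SE 0.34, adjusted p = 5.60e-07). These were the 4 lowest log2 changes among all genes tested, whose median was -0.29. That rank belongs to this scale, where the added 1 FPKM limits how far genes of lower WT level can fall. Prm3 stood at -3.58 (SE 0.21, adjusted p = 1.46e-06) and ranked 1110 from the lowest; the added 1 FPKM limits how far a gene of its level can fall. With 0.1 FPKM added the Prm3 change was -5.73, and with voom on the recovered reads, an alternative that keeps the counts, it was -5.94. Tnp1, also below 1 FPKM in KO, changed by -8.57 with 0.1 FPKM added and by -8.67 with voom. Those were the largest falls of the 5 genes in these settings, so the order of the changes also depends on the scale.

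As shares of the WT mean, the KO levels were 0.498% for Tnp2 (95% interval of the pooled KO count 0.385% to 0.633%), 0.327% for Prm1 (0.223% to 0.465%) and 0.317% for Prm2 (0.228% to 0.428%). Tnp1 stood at 0.199% (0.0801% to 0.410%) and Prm3 at 1.08% (0.131% to 3.92%). The exact Poisson intervals take the WT mean as fixed and cover counting error only. The share of Tnp2 lies above the upper limits of Prm1, Prm2 and Tnp1, but its own interval overlaps each of theirs. That of Prm3, from 2 reads, has the widest interval. Differences between these shares were not tested. In bulk RNA, fewer spermatids and less of this RNA per spermatid cannot be told apart.

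The fall went with that of other spermatid genes. All 29 tested genes of elongating spermatids, of 30 listed, were called lower in KO against WT, with a median log2 change of -4.92. Their sum was 3420 and 4239 FPKM in EE_KO, 82.4 and 90.8 FPKM in KO and 3189 and 3957 FPKM in WT libraries. Dnajb3 (-4.98), a spermatid cochaperone, Tcp11 (-5.08), Fhl4 (-5.42) and the outer dense fibre gene Odf2 (-3.79) had the smallest p of the list. A small p favours genes with little spread between replicates, so these need not be the genes most like the protamines. Dnajb3 and Odf2 kept 2.85% and 6.92% of the WT mean in KO, above the list median of 1.01%. All 24 tested genes of round spermatids, of 25 listed, were also called lower, with a median of -4.70. The acrosomal Zpbp2 (-5.71) and Dpy19l2 (-5.01) and the tektins Tekt1 (-5.16) and Tekt4 (-4.89) led this list. Of 24 mid to late pachytene genes 23 were called lower, with a median of -4.23, among them Adam3 (-6.08), Tdrd6 (-5.59), Meig1 (-5.02) and Nme5 (-4.97). Sycp1 of the synaptonemal complex, named here after its values were seen as the gene not called, averaged 39.9 ± 2.76 FPKM in KO and 45.6 ± 3.31 in WT (SD, n = 2). Of 18 leptotene and zygotene genes, markers of early meiosis, 6 were called higher and 6 lower (median -0.04). The background for all these counts is that 48.1% of all genes tested were called lower and 38.0% higher.

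Compared by the share of the WT mean left in KO, the median gene stood at 1.01% in the elongating spermatid list, 1.32% in the round spermatid list and 4.03% in the pachytene list, against 78.5% over all genes tested. The lowest member of the elongating list stood at 0.182%, below each of the 5 genes, so a share this low was not particular to them. These shares are a description, since the 5 genes and the lists were not drawn independently.

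**Figure D2:**
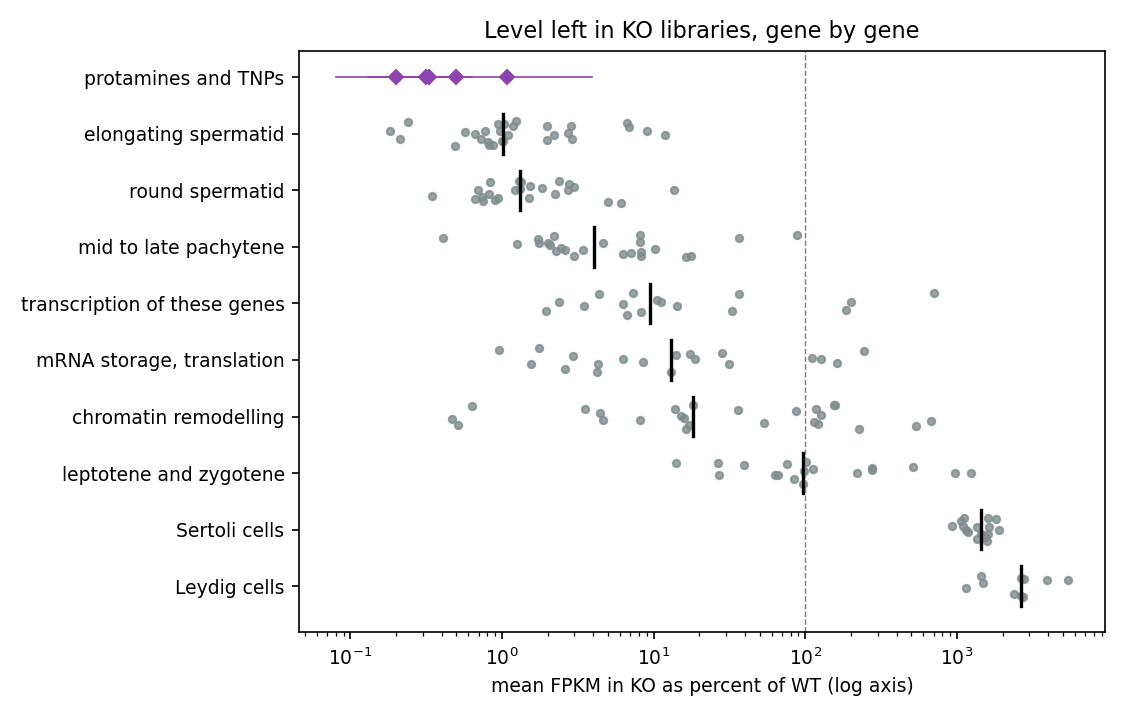
Mean FPKM in KO as percent of the WT mean on a log axis, 1 point per gene tested, in rows by gene list. Purple diamonds in the top row are the 5 protamine and transition protein genes (TNPs) with 95% count intervals, black bars are list medians and the dashed line marks 100%. The 5 genes lie from 0.199% to 1.08%, with Tnp1, Prm2, Prm1 and Tnp2 below the medians of both spermatid lists and Prm3 between them, while Sertoli and Leydig markers lie above 100%.

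Cell markers moved the other way in the same libraries. All 17 tested Sertoli markers of 18 listed were called higher in KO against WT, as were 38.0% of all genes tested, with a median of 3.44 and with Clu at 268 and 149 FPKM in EE_KO, 2240 and 2161 in KO and 162 and 162 in WT libraries. The 10 Leydig markers were called higher too (median 4.25), among them Star (3.68), Cyp11a1 (4.23), Akr1cl (4.52) and Hsd3b1 (3.30). Of 12 tested spermatogonial genes, of 17 listed, 10 were called higher and 2 lower (median 1.88), with Uchl1 at 3.24, Kit at 2.71 and Rhox13 at 2.38, against -4.52 for Dmrtb1. The 8 tested leukocyte genes of 12 (median 2.08) and the 3 tested peritubular and endothelial genes of 12 (median 2.43) were called higher as well; Hba-a2 and Hbb-bt of red blood cells were at 0 in every library. The part of these cells in the fall of the protamine and transition protein RNA was not tested.

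Genes that act on the protamine and transition protein genes were low in KO as well. Of 16 genes for their transcription 13 were called lower and 3 higher (median -3.15), against 48.1% and 38.0% of all genes tested. Gtf2a1l, the germ cell form of a TFIIA subunit, fell by 5.37 (SE 0.11), the factor Rfx2 by 4.22 (SE 0.11), Tcfl5 by 3.81 (SE 0.12) and the TBP-like factor Tbpl1 by 3.48 (SE 0.12), each with an adjusted p between 5.37e-08 and 1.54e-07. Crem itself, named after its values were seen, read 28.4 and 30.1 FPKM in EE_KO, 2.18 and 1.93 in KO and 29.3 and 26.7 in WT libraries, and its coactivator Fhl5 read 34.2 and 45.0 in EE_KO, 0.808 and 0.541 in KO and 21.7 and 34.8 in WT libraries. The KO values of both genes lay below all others. The 3 genes called higher, named for that reason, were Taf7l (2.61) and Taf7 (0.92), forms of one TFIID subunit, and Creb1 (0.62), the somatic relative of Crem. This list and those of mRNA storage and chromatin remodelling described next share genes with the mid to late pachytene list. Shared are Tbpl1, Mybl1, Ybx2, Piwil1, Tdrd6, Hspa2 and Hist1h1t, and Ybx2 stands in both the transcription and the storage list. The counts of these lists are therefore not separate.

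Of 19 genes for storage and translation of spermatid mRNA 15 were called lower and 3 higher in KO against WT (median -2.82). Over all genes tested the shares were 48.1% lower and 38.0% higher. Pabpc2 (-5.80), a poly(A)-binding protein, Tdrd6 (-5.59) of the chromatoid body, Piwil1 (-5.10) of the piRNA pathway and the testis poly(A) polymerase Papolb (-4.83) had the smallest p. Ybx2, the Y-box protein that holds protamine mRNA in store, was named after its values were seen. It read 1277 and 1307 FPKM in EE_KO, 70.3 and 91.8 in KO and 1290 and 1293 in WT libraries, so that the WT pair differed far less in it than in Prm1. The 3 genes called higher were Paip2b (1.13), Tsn (0.60) and Paip2 (0.34).

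Of 25 tested genes of spermatid chromatin remodelling, of 27 listed, 15 were called lower and 5 higher (median -1.25), against 48.1% and 38.0% of all genes tested. The spermatid linker histone Hils1 fell by 6.20 (SE 0.26, adjusted p = 3.20e-07), the chaperone Hspa2, which escorts transition proteins, by 3.61 (SE 0.12, adjusted p = 1.25e-07), Brdt, which reads acetylated histones, by 2.75 (SE 0.11, adjusted p = 2.76e-07) and Hspa4l by 2.48 (SE 0.11, adjusted p = 3.54e-07). Among those called higher, and named for that reason, were Top2b (2.23), Hist1h2bc (2.08), Parp1 (0.64) and Ctcf (0.58). No gene of these 3 lists was called in EE_KO against WT by limma, where only 0.0455% of all genes tested were called.

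The neighbours of the cluster changed less or in the other direction. Socs1, a suppressor of cytokine signalling that lies 2400 bases from Tnp2 on the same strand, read 3.59 and 3.22 FPKM in EE_KO, 10.1 and 9.09 in KO and 2.80 and 3.25 in WT libraries. Both KO values were above the other 4, and Socs1 was called higher by 1.39 (SE 0.14, adjusted p = 3.28e-05). Clec16a on the other side of Socs1 read 12.9 and 14.4 FPKM in EE_KO, 5.65 and 5.98 in KO and 14.3 and 12.6 in WT libraries, a change of -1.08 (SE 0.13, adjusted p = 7.08e-05). Rmi2, beyond Prm1, was too low to test, with means of 0.460 FPKM in EE_KO, 0.423 in KO and 0.581 in WT, and Gm11172 was at 0 in every library.

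In EE_KO against KO all 5 genes were called higher, where 47.8% of all genes tested were. On the log2(FPKM + 1) scale Prm1 stood 7.77 above KO (SE 0.41, adjusted p = 1.09e-06), Tnp2 7.33 (SE 0.35, adjusted p = 6.00e-07), Prm2 7.07 (SE 0.34, adjusted p = 6.69e-07), Tnp1 6.48 (SE 0.34, adjusted p = 1.01e-06) and Prm3 3.86 (SE 0.21, adjusted p = 1.11e-06). The summed FPKM of the 5 genes was 254 times that of KO. This comparison shares its KO libraries with KO against WT. All 29 elongating and all 24 round spermatid genes tested were called higher in it, while all 17 Sertoli and 10 Leydig markers were called lower, as were 37.8% of all genes tested.

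None of the 5 genes was called in EE_KO against WT by limma, where 0.0455% of genes tested were called and 1150 genes had an unadjusted p under 0.05. Tnp1 had the lowest value, -0.69 (95% interval -1.48 to 0.10, adjusted p = 0.719, unadjusted p = 0.0772). Prm2 stood at -0.31 (-1.10 to 0.48, adjusted p = 0.905), Tnp2 at 0.14 (-0.66 to 0.95, adjusted p = 0.966), Prm3 at 0.28 (-0.19 to 0.76, adjusted p = 0.844) and Prm1 at 0.35 (-0.61 to 1.30, adjusted p = 0.913). As folds of EE_KO over WT, these intervals ran from 0.359 to 1.07 for Tnp1, from 0.466 to 1.40 for Prm2, from 0.633 to 1.93 for Tnp2, from 0.874 to 1.69 for Prm3 and from 0.655 to 2.47 for Prm1. A difference of 2-fold was therefore inside the interval for Tnp1, Prm2 and Prm1, and the data do not show that the groups are alike. For 0 of the 5 genes did the libraries of the 2 groups fail to overlap, against 36.5% of all genes tested.

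The signs in this comparison turned on single libraries. Without the first WT library the differences were -1.31 for Tnp1, -0.90 for Prm2, -0.40 for Tnp2, -0.30 for Prm1 and 0.06 for Prm3. Without the second WT library they were -0.07 for Tnp1, 0.28 for Prm2, 0.69 for Tnp2, 0.99 for Prm1 and 0.51 for Prm3. Without the second EE_KO library Tnp2 stood at -0.15. The order from Tnp1 through Prm2 and Tnp2 to Prm1 was the same in each of the 4 fits that left out an EE_KO or a WT library.

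**Figure D3:**
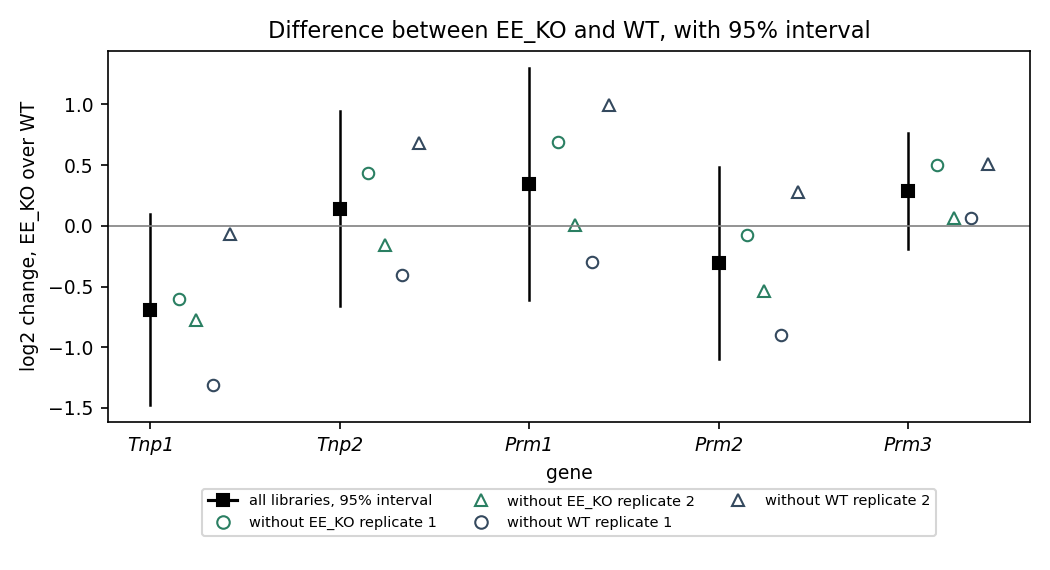
Log2 change of EE_KO over WT for each gene on the log2(FPKM + 1) scale. Black squares are the fit of all libraries with 95% intervals, and open symbols leave out 1 library each (green circles and triangles EE_KO replicates 1 and 2, blue circles and triangles WT replicates 1 and 2). Every interval spans 0, and leaving out WT replicate 1 moves all 5 genes down while leaving out WT replicate 2 moves all 5 up.

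Ratios between the genes within a library do not depend on how that library was scaled. Prm1 over Prm2 was 1.61 and 1.88 in EE_KO, 0.906 and 1.36 in KO and 1.06 and 1.15 in WT libraries. Both EE_KO values lay above both WT values. Among the reads on either protamine, Prm1 took 50.7% (exact binomial 95% interval 49.5% to 51.9%) and 54.6% (53.7% to 55.5%) in EE_KO, against 40.4% (39.1% to 41.7%) and 42.3% (41.5% to 43.2%) in WT libraries. The gap between groups was wider than these counting intervals and than the difference within each pair, but with 2 libraries a group the exact two-sided permutation p was 0.333, the smallest it can be. In KO the shares, 36.7% (19.9% to 56.1%) and 46.5% (31.2% to 62.3%), rest on 30 and 43 reads and overlap those of the other groups.

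Tnp2 over Tnp1 likewise was 4.66 and 6.25 in EE_KO, 10.3 and 5.32 in KO and 3.20 and 2.86 in WT libraries. The EE_KO values again lay above WT (exact two-sided permutation p = 0.333, the smallest possible). Tnp2 took 85.5% (84.6% to 86.5%) and 88.8% (88.1% to 89.5%) of the reads on the transition proteins in EE_KO, against 80.2% (79.0% to 81.4%) and 78.4% (77.6% to 79.2%) in WT libraries. The summed protamines Prm1 and Prm2 over the summed transition proteins Tnp1 and Tnp2 gave 1.01 and 1.07 in EE_KO, 0.524 and 1.05 in KO and 0.936 and 1.01 in WT libraries. Outside KO these were close to 1 per length of all exons, but they depend on that length. Per length of the first-numbered transcripts, the WT means of Prm1 and Prm2 rose to 574 and 605 FPKM. Those of Tnp1 and Tnp2 stayed at 228 and 676 FPKM, so the ratio is higher on that scale. Among the 6 ratios compared between EE_KO and WT, the exact p of Prm1 over Prm2 and of Tnp2 over Tnp1 became 0.400 after Benjamini-Hochberg adjustment. Which ratios to describe was decided with the values in view.

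**Figure D4:**
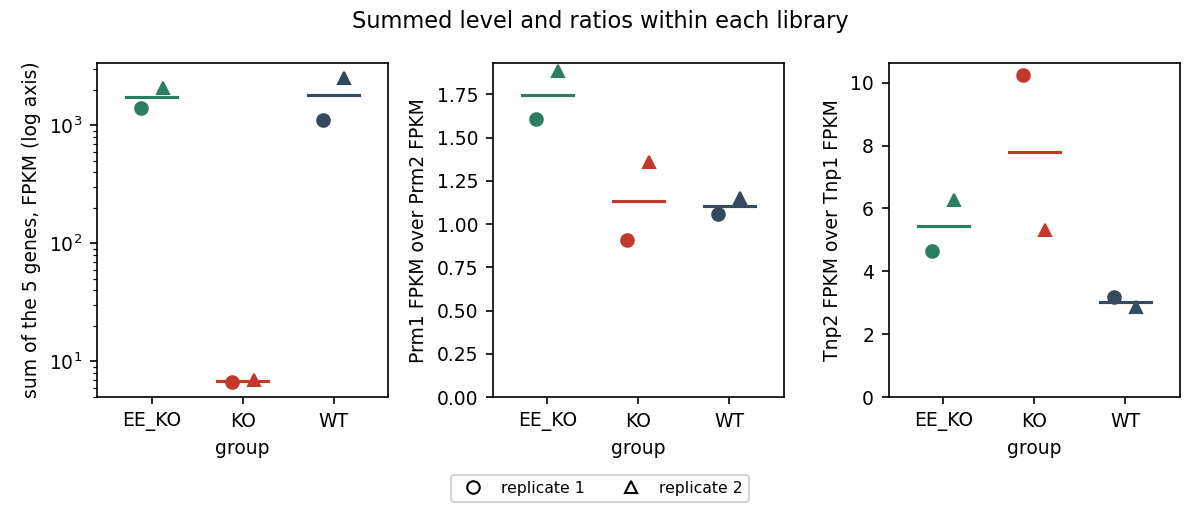
Summed FPKM of the 5 genes (left, log axis), Prm1 over Prm2 (middle) and Tnp2 over Tnp1 (right) in each library, for EE_KO, KO and WT from left to right. Circles are replicate 1, triangles replicate 2 and bars group means. The EE_KO ratios (1.61 and 1.88; 4.66 and 6.25) lie above those of WT (1.06 and 1.15; 3.20 and 2.86), while the sums of EE_KO and WT overlap.

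The WT libraries differed from each other more in these genes than in most. Replicate 2 exceeded replicate 1 by 2.45 times for Prm1, 2.38 for Tnp1, 2.26 for Prm2, 2.13 for Tnp2 and 1.39 for Prm3. As log2 differences, 1.29 for Prm1, 1.24 for Tnp1, 1.17 for Prm2 and 1.09 for Tnp2 lay above the 99.5th percentile of all genes tested, and only 41 genes lay above Prm1. The middle 90% of genes ran from -0.41 to 0.60, and Prm3, at 0.44, lay within it. Other elongating spermatid genes differed the same way, with 27 of 29 higher in replicate 2 and a median of 0.71. Round spermatid genes had a median of 0.47 and pachytene genes one of -0.14. Sertoli markers summed to the same level in both WT libraries (501 and 497 FPKM), and Leydig markers to 64.3 and 118 FPKM.

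The EE_KO libraries differed in the same direction by less, though hardly so for Prm3. Replicate 2 exceeded replicate 1 by 1.61 times for Prm1, 1.51 for Tnp2, 1.39 for Prm3, 1.38 for Prm2 and 1.13 for Tnp1. As log2 differences, 0.69 for Prm1, 0.59 for Tnp2, 0.46 for Prm2 and 0.44 for Prm3 lay above the 95th percentile of all genes tested, 0.40. Tnp1, at 0.17, lay below it. Elongating spermatid genes had a median log2 difference of 0.32, with 27 of 29 higher in replicate 2, round spermatid genes 0.18 and pachytene genes 0.10. Here somatic markers moved against them, since 0 of 17 Sertoli genes were higher in replicate 2 (median -0.85) and the Leydig median was -0.70. The part of these cells in the differences between libraries was not tested.

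**Figure D5:**
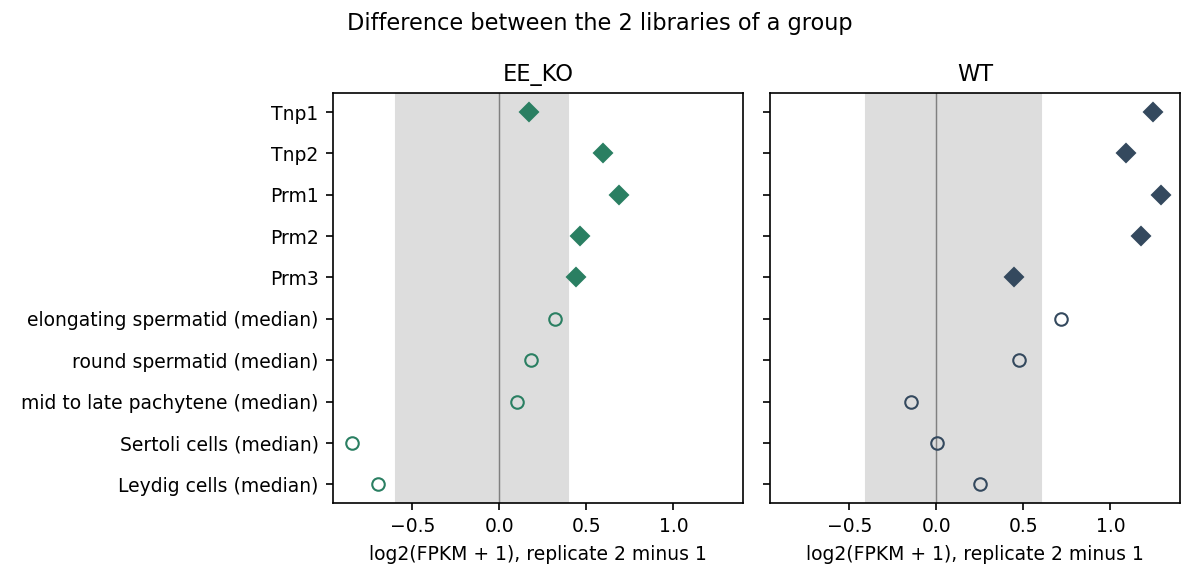
Log2(FPKM + 1) of replicate 2 minus replicate 1 in EE_KO (left) and WT (right). Filled diamonds are the 5 genes, open circles are medians of gene lists and the grey band holds the middle 90% of genes tested. In WT Tnp1, Tnp2, Prm1 and Prm2 lie beyond the band, from 1.09 to 1.29, and the list medians fall off from elongating to round spermatids to pachytene. In EE_KO Prm1, Tnp2, Prm2 and Prm3 lie beyond the band, from 0.44 to 0.69.

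The genes whose profile over the 6 libraries was most like the mean profile of the 5 were sought by the root mean square difference of centred log2(FPKM + 1) values. Genes with only a clone name were passed over, 3 of them nearer than the last gene named. Of the others Spz1, a helix-loop-helix factor of the testis, was nearest at 0.173, followed by Odf1 (0.208) of the outer dense fibres, Akap4 (0.217) of the fibrous sheath, Hils1 (0.231) and Gsg1 (0.269). BC106175 (0.289), the sperm mitochondrial gene Smcp (0.305), Prr30 (0.318), Spata20 (0.415) and Znrf4 (0.427) came next. The median of all genes was 2.97. The 5 genes themselves stood at 0.317 for Tnp1, 0.351 for Prm2, 0.382 for Tnp2, 0.552 for Prm1 and 1.34 for Prm3, so that Prm1 and Prm3 were farther from the mean profile of their own group than each of the 10 genes named. That mean profile includes Prm3, whose fall in KO is limited by the added 1 FPKM. All these distances therefore depend on the scale. Odf1, as an example, read 208 and 308 FPKM in EE_KO, 1.71 and 2.45 in KO and 164 and 278 in WT libraries, with the second library of EE_KO and of WT above the first, as for the 5 genes. The likeness was measured over the libraries that also gave the tests and is a description.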

How the data were processed

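Per the labels' protocols, 1.3 µg of total RNA per sample was made into libraries with a SMARTer kit. The authors deposited FPKM per gene, per the file headers, and GRCm38 and mm10 are named in the submitters' processing notes. An aligner, counter, annotation or strand was not given in the sources used here. GENCODE M21 supplied symbols, positions and exon lengths for 54495 of 54532 genes. Reads were recovered as FPKM times exon-union length, and 96.9 to 97.1% of values above 0 came out whole (tolerance 0.01). The test covered 15368 genes whose mean FPKM reached 1, without 533 short RNA genes and 6 lower entries of repeated symbols.

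One limma fit (version 3.58.1 in R 4.3.3) held all 6 libraries as log2(FPKM + 1), with a trend of the variance on the mean, 3 comparisons and Benjamini-Hochberg adjustment. Its code was also run on simulated data in which far fewer genes changed than here, so that run does not bear on the p-values. The added 1 FPKM understates changes of low genes. Levels below 1 FPKM in KO passed the filter through EE_KO and WT. Single values used exact permutation tests. Tables used Python 3.11.15, pandas 2.3.3, numpy 2.4.6 and scipy 1.17.1, and figures matplotlib 3.10.9. Promoter sequences are RefSeq's (GRCm38.p6). Named genes are the 5 genes, the MAPS gene, the 4 genes of smallest p in KO against WT from each of 12 lists, the 10 most alike profiles with clone names passed over, and protein-coding genes within 100 kb; others are said to be named after their values were seen. The value of 1 list gene is not reported here. The members and lists were chosen with earlier results of these data known. Replicate numbers were not taken as pairs. Alternatives were other pseudocounts, filters, scalings and models, voom on the recovered reads and each library left out.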

Additional observations from a re-analysis of the deposited data

How the results depend on the processing

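Both for KO against WT and for EE_KO against KO, the 5 genes kept their direction and their call in each of 17 alternatives. The KO against WT changes ranged from -8.15 to -6.78 for Prm1, -8.17 to -6.80 for Prm2, -8.67 to -6.47 for Tnp1, -7.73 to -6.64 for Tnp2 and -5.94 to -3.07 for Prm3. In EE_KO against WT no gene of the 5 was called in any of the 17, but signs turned: with 1 library left out, Tnp2 ranged from -0.40 to 0.69 (-0.15 without EE_KO replicate 2), Prm1 from -0.30 to 0.99 and Prm2 from -0.90 to 0.28. The summed FPKM of the 5 genes in EE_KO over WT, 0.958 with all libraries, ranged from 0.691 to 1.56 with 1 library left out, and was 1.14 without EE_KO replicate 1 and 1.56 without WT replicate 2.

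Counts over all genes were 5842 higher and 7399 lower for KO against WT, 4 and 3 for EE_KO against WT, and 7339 and 5816 for EE_KO against KO. With a mean FPKM of at least 5 they were 2934 and 4770, 1 and 1, and 4725 and 2930, where fewer genes were tested. With no filter 9129 were higher in KO against WT, 0 and 0 were called in EE_KO against WT and 8938 were lower in EE_KO against KO. For EE_KO against WT, fitting only the 2 groups called 0 and 0, pseudocounts of 0.1 and of 0.5 called 1 lower each, voom called 6 lower, and leaving out 1 library gave 0 to 8 higher and 0 to 11 lower. The cause of these differences was not tested.

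Over all genes tested, same-numbered libraries did not deviate together (correlations of 0.05 for EE_KO with WT, -0.03 for KO with WT and 0.09 for EE_KO with KO), so the numbers were not taken as pairs. The 5 genes, however, were higher in replicate 2 in both EE_KO and WT, and in KO all of them but Tnp2 were. With the replicate block, EE_KO against WT had 2 higher and 0 lower, and no call among the 5 genes changed. The block lowered the SE of each of the 5 in that comparison, from 0.41 to 0.18 for Prm1 and from 0.35 to 0.29 for Tnp2.

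The median change of all genes in KO against WT, -0.29 as deposited, was 0.14 with TPM and 0.03 with quantile normalization; that of EE_KO against KO, 0.26 as deposited, was -0.13 with TPM and -0.04 with quantile normalization. Of 184 list genes called in KO against WT, 1, Sycp3, changed sign with quantile normalization, and of 186 in EE_KO against KO, 1, Sycp1, did. As TPM the KO means were 1.64 for Prm2, 0.170 for Prm3 and 0.562 for Tnp1. Prm1 over Prm2 per length of the first transcript, a choice made after the data were seen, was 1.36 and 1.59 in EE_KO, 0.767 and 1.15 in KO and 0.896 and 0.972 in WT libraries. Depth limits the KO levels, which rest on 2 reads for Prm3 and 7 for Tnp1 over both libraries.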
